A study of Mus musculus with 9 samples.

Results

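Peaks of RNA bound to Polycomb repressive complex 2 (PRC2) were examined over 2 cadherin genes of mouse chromosome 8, Cdh1 and Fat1. A peak belonged to a gene when it lay on the plus strand and its summit fell at 109127000 to 109195000 for Cdh1 (ENSMUSG00000000303.12, a window of 68 kb) or at 46015000 to 46140000 for Fat1 (ENSMUSG00000070047.14, a window of 125 kb), in mouse build mm9. Of 49266 peaks in all, 80 met this rule, 36 in Cdh1 and 44 in Fat1. The genes were chosen by their numbers of plus-strand peaks: each covers one of the 10 windows of 50 kb in which the library with the fewest peaks had the most. Those numbers are therefore a description and were not tested against other windows. The annotation at hand was of another build, GRCm38.p6. The gene names therefore rest on the windows of the rule, peaks were not assigned to exons, introns or untranslated regions, and no sequence of a peak was read.

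Cdh1 encodes E-cadherin, the calcium-dependent adhesion receptor that joins epithelial cells at adherens junctions and binds catenins through its cytoplasmic tail. It is made by embryonic stem cells and is lost from many of their descendants when they pass through an epithelial-mesenchymal transition. Fat1 encodes a very large atypical cadherin, related to the Drosophila tumour suppressor fat, which acts in cell polarity and at cell contacts. PRC2 methylates histone H3 on lysine 27 through its catalytic subunit EZH2, needs SUZ12 for its activity, and also binds RNA.

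The series held 9 samples of female EL 16.7 mouse embryonic stem cells, a CAST/Ei x 129/Sv/Jae hybrid, after 7 days of differentiation. The 4 libraries used here came from dCLIP, in which RNA crosslinked by UV light to a biotinylated protein is captured on streptavidin. These cells stably expressed the biotin ligase BirA with Avi-GFP-mEzh2 (clones 4A and 5A, EZH2 replicates 1 and 2) or with Avi-GFP-mSuz12 (clones 8E and 8H, SUZ12 replicates 1 and 2). The tagged protein was expressed from a transgene, and each library is 1 clone, so clone and replicate cannot be told apart. The other samples were not analysed here: 1 mock dCLIP library, whose cells carried an empty vector beside BirA, and 4 PRO-seq libraries, from wild-type and SUZ12-degron cells (2 each). No value below therefore has an untagged background beside it.

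Cdh1 carried peaks in every library and on the plus strand alone. There were 8 peaks in EZH2 replicate 1, 9 in EZH2 replicate 2, 9 in SUZ12 replicate 1 and 10 in SUZ12 replicate 2. The means were 8.5 ± 0.707 (SD, n = 2) for EZH2 and 9.5 ± 0.707 (SD, n = 2) for SUZ12, and the libraries of both proteins met at 9 peaks. Fat1, with the longer window, carried 12 peaks in EZH2 replicate 1, 9 in EZH2 replicate 2, 10 in SUZ12 replicate 1 and 13 in SUZ12 replicate 2. Its means were 10.5 ± 2.12 (SD, n = 2) for EZH2 and 11.5 ± 2.12 (SD, n = 2) for SUZ12, with ranges that overlapped. Per 10 kb of window and library, Cdh1 held 1.32 peaks and Fat1 0.88, beside 0.0343 on the rest of the plus strand of chromosome 8. That rest takes in sequence with and without genes.

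In Cdh1 the order of the libraries followed the length of their lists, and in Fat1 it did not. The lists held 10468 and 13267 peaks for EZH2 and 11580 and 13951 for SUZ12, and read depth cannot be seen in a peak list. Per 10000 peaks of the list, Cdh1 stood at 7.64 in EZH2 replicate 1 (95% Wilson interval 3.87 to 15.1), 6.78 in EZH2 replicate 2 (3.57 to 12.9), 7.77 in SUZ12 replicate 1 (4.09 to 14.8) and 7.17 in SUZ12 replicate 2 (3.89 to 13.2). On that scale the 4 libraries had almost the same value. For Fat1 the values were 11.5, 6.78, 8.64 and 9.32 in the same order, so the 2 EZH2 clones were the highest and the lowest, and both SUZ12 clones lay between them. Such intervals cover counting error only.

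The minus strand was empty over both genes. No library had a minus-strand peak in either window, which for 80 peaks in all allows a minus share of up to 3.75% (8.33% for Cdh1 alone and 6.82% for Fat1 alone). These are approximate 95% limits, 3 divided by the number of peaks, and treat peaks as independent. As many peaks overlapped between libraries, the limits are likely too low. The windows were also chosen by their plus-strand peaks. The nearest minus-strand peaks lay 318 kb before and 189 kb after the Cdh1 window, and 1624 kb before and 916 kb after the Fat1 window. Among the 8 other windows of 50 kb that led the genome, 5 also had no peak on the opposite strand, while 3 had some, up to 10. An empty opposite strand was therefore not particular to Cdh1 and Fat1. Its share over all windows with peaks is not given here, so nothing about dense windows is read from this count.

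The edges of the windows did not cut through a run of peaks. Around Fat1 there were 0 peaks on either strand within 125 kb on both sides, and the nearest plus-strand peaks lay 1562 kb before and 651 kb after its window. Within the window the first summit lay 8.95 kb from the start and the last 2.72 kb from the end. Cdh1 was less isolated. Its flank of 68 kb on the upstream side held 8 plus-strand peaks, 1 from EZH2 (replicate 1) and 7 from SUZ12 (3 in replicate 1, 4 in replicate 2), and its downstream flank held 2, 1 in EZH2 replicate 2 and 1 in SUZ12 replicate 1. The nearest of them were 43.6 kb before and 34.7 kb after the window, whereas the outermost Cdh1 summits lay 0.313 and 0.906 kb inside it. As for the rule on density, the Cdh1 window at 109150001 to 109200000 was second of all 50-kb windows and the Fat1 window at 46100001 to 46150000 was the seventh. The last window inside the 10, on chromosome 10, and the first outside, on chromosome 2, both held a minimum of 4 and a sum of 27 peaks.

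**Figure D1:**
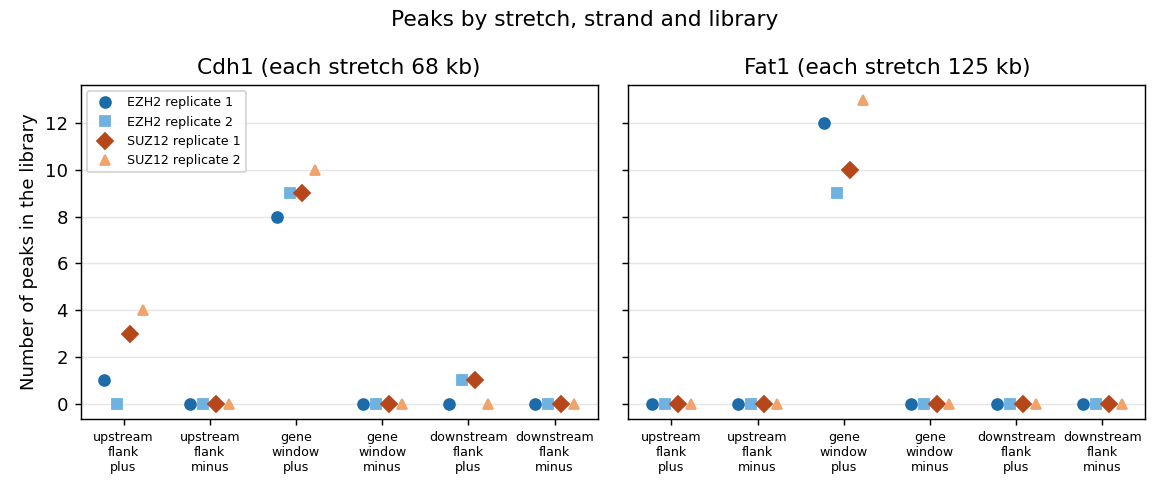
Number of peaks (vertical axis) in each gene window and in the stretches of the same length on both sides, by strand, with 1 symbol per library. The plus strand of the gene windows held 8 to 10 peaks in Cdh1 and 9 to 13 in Fat1, the minus strand held 0 throughout, and the flanks held 0 around Fat1 and at most 4 around Cdh1.

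The main feature of Cdh1 was a group of strong peaks in the last 3 kb of the window, a distance chosen after the values were seen. It held 11 of the 36 peaks (30.6%), 2 in EZH2 replicate 2 and 3 in each of the other libraries. The summits formed 3 tight clusters. The first had a peak in every library, and its 4 summits lay within 38 bp of each other, about 2.5 kb from the window end. In EZH2 replicate 1 this peak ran from 109192409 to 109192619 with a false discovery rate (FDR, as the authors' peak caller gave it) of 3.55e-13, and in EZH2 replicate 2 from 109192405 to 109193204 with an FDR of 2.57e-24. In SUZ12 replicate 1 it ran from 109192454 to 109192671 (FDR 7.93e-10) and in SUZ12 replicate 2 from 109192459 to 109192592 (FDR 1.54e-09). The EZH2 replicate 2 peak was 800 bp wide and stood eleventh of the 13267 peaks of its library.

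The second cluster lay at 109193028 to 109193267, with peaks in 3 libraries and summits within 17 bp. The FDR was 1.14e-10 in EZH2 replicate 1, 3.99e-07 in SUZ12 replicate 1 and 7.83e-06 in SUZ12 replicate 2. EZH2 replicate 2 had no separate peak there, but its 800-bp peak reached over these summits, so the first and second clusters merge into 1 site of 863 bp at 109192405 to 109193267 with 7 peaks. The third cluster, at 109193939 to 109194165, again had a peak in every library, with summits within 87 bp. For EZH2 its FDR was 1.14e-11 (replicate 1) and 1.41e-10 (replicate 2), and for SUZ12 1.27e-08 (replicate 1) and 6.43e-10 (replicate 2). Both 4-library sites of Cdh1 were thus at this end, and at both the lowest FDR was in an EZH2 library. FDR values come from each library's own list, so this order was not tested.

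The opposite end of the Cdh1 window had the only other site found in more than 2 libraries. At 109127254 to 109127451, 0.313 to 0.354 kb from the window start, EZH2 replicate 1, SUZ12 replicate 1 and SUZ12 replicate 2 each had a peak, with an FDR of 4.33e-06, 0.000286 and 2.57e-09. EZH2 replicate 2 had none, and its first Cdh1 peak lay 8.99 kb into the window. Between the ends the peaks were scattered, and nearly all had a higher FDR than any peak of the last 3 kb. They included 3 sites with a peak in 2 libraries, at 109150654 to 109150895 (EZH2 replicate 2 and SUZ12 replicate 2), 109177465 to 109177874 (EZH2 replicate 1 and SUZ12 replicate 2) and 109187664 to 109187840 (both SUZ12 clones). The strongest peak seen in 1 library, at 109189274 to 109189506 in EZH2 replicate 2, had an FDR of 5.70e-06. A stretch of 11.8 kb before the site at 109177465 had no peak in any library.

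**Figure D2:**
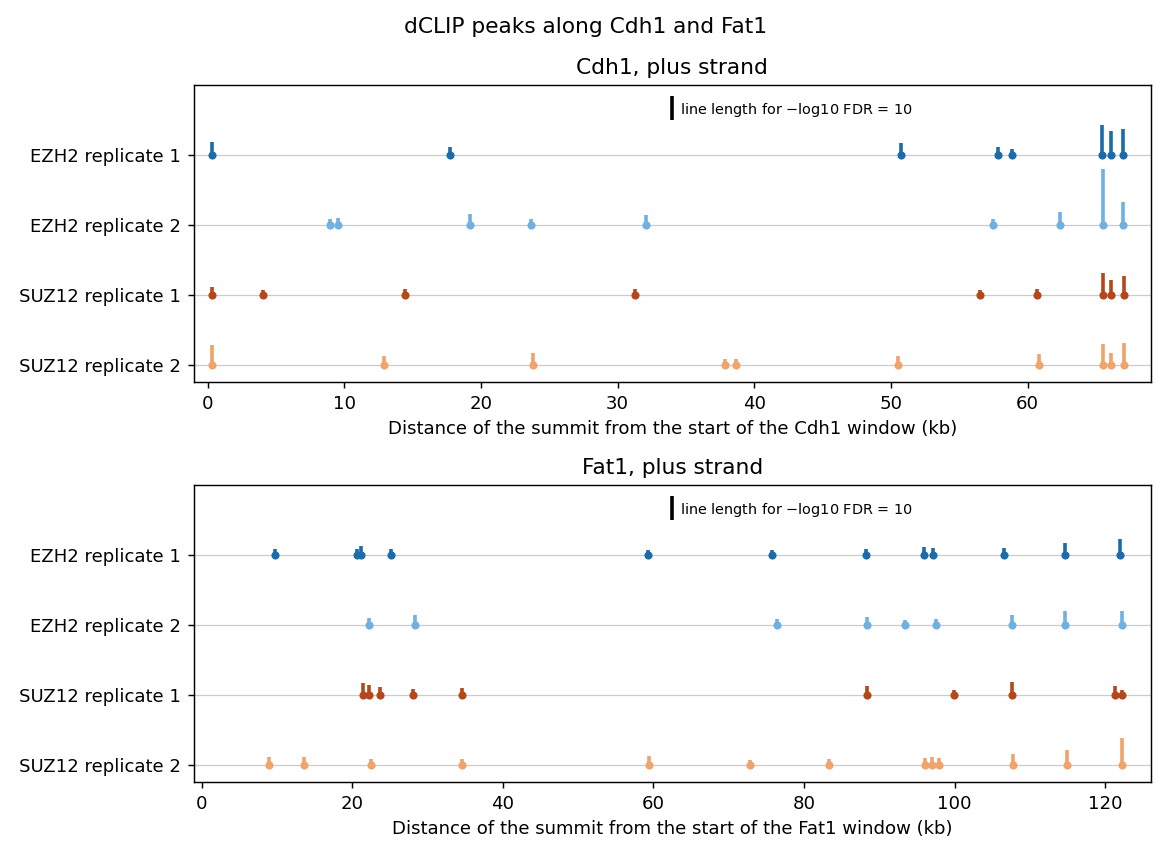
Position of every plus-strand peak summit along the Cdh1 window (upper panel) and the Fat1 window (lower panel), with distance from the window start in kb on the horizontal axis and 1 row per library. The length of each line is proportional to the negative log10 of the peak's FDR, with a scale line for a value of 10. In Cdh1 the longest lines stand in the last 3 kb in all 4 rows, while in Fat1 peaks lie in 2 broad stretches and the last site is marked in all 4 rows.

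Fat1 peaks were spread over its window. Cut into 10 equal parts from the start, the window held 8 of its 44 peaks in part 2 and 5 in part 3, then 0 in part 4. Part 8 held 11 and part 10 held 8. A stretch of 24.7 kb between 46049600 and 46074251 had no peak in any library. The 1 site with a peak in every library was again the last of the window, at 46136903 to 46137392, 490 bp long. Its FDR was 2.29e-07 in EZH2 replicate 1, 2.14e-06 in EZH2 replicate 2, 0.00790 in SUZ12 replicate 1 and 3.77e-12 in SUZ12 replicate 2. Its peak thus ranked 77 of 13951 in SUZ12 replicate 2 but 9611 of 11580 in SUZ12 replicate 1, and the summits spread over 275 bp. The p-value of the SUZ12 replicate 1 peak tied with those of other peaks in its list, which had slightly different FDR values. Its exact rank within these ties therefore has no meaning. SUZ12 replicate 1 had a further, stronger peak nearby, at 46136150 to 46136404 with an FDR of 0.000283.

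Further upstream in Fat1, 2 sites had a peak in 3 libraries. The site at 46122610 to 46122788 had an FDR of 5.23e-05 in EZH2 replicate 2, 3.85e-06 in SUZ12 replicate 1 and 4.30e-05 in SUZ12 replicate 2, and its summits lay within 105 bp. EZH2 replicate 1 had no peak there. The site at 46103263 to 46103450 had an FDR of 0.00324 in EZH2 replicate 1, 0.000673 in EZH2 replicate 2 and 0.000253 in SUZ12 replicate 1, and SUZ12 replicate 2 had none. A place between the last site and these was touched by 3 libraries without meeting the rule for sharing. Both EZH2 clones had overlapping peaks at 46129538 to 46129771, with an FDR of 1.96e-05 and 2.06e-06, and SUZ12 replicate 2 had a peak at 46129783 to 46129936 with an FDR of 9.29e-07, 11 bp beyond them. In all, 5 of the 31 gaps between neighbouring Fat1 sites were shorter than 200 bp, against 0 of 21 in Cdh1, so the 1-bp rule splits some close Fat1 peaks that it would otherwise join.

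**Figure D3:**
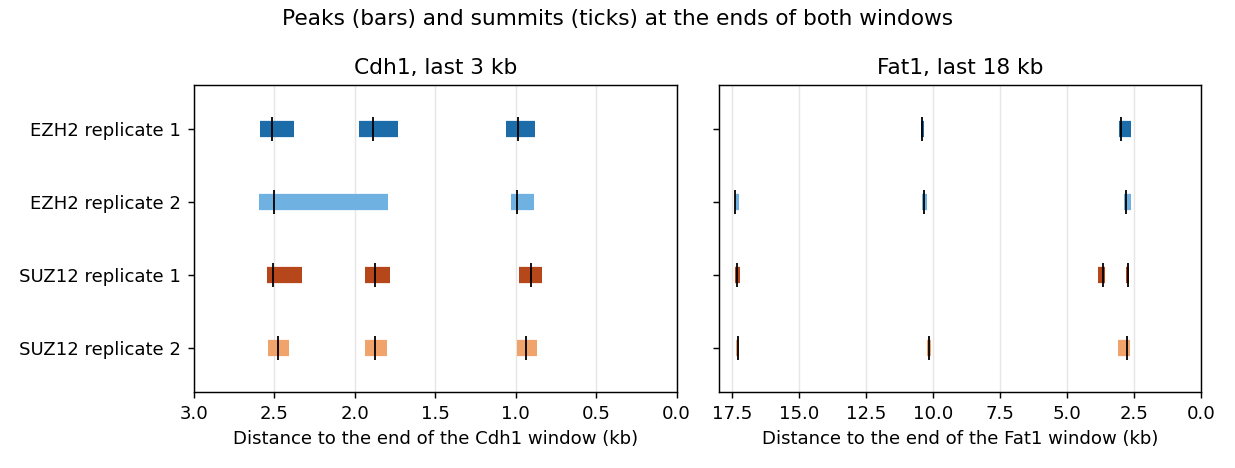
Peaks (bars, drawn to scale) and summits (black ticks) in the last 3 kb of the Cdh1 window (left) and the last 18 kb of the Fat1 window (right), with distance to the window end in kb on the horizontal axis and 1 row per library. The 3 Cdh1 clusters line up across the rows, with an 800-bp bar in EZH2 replicate 2 over the first and second clusters, and the Fat1 site nearest the end has a bar in all 4 rows.

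Recurrence was summarised over all peaks of a gene. A peak counted as shared when a peak of another library overlapped it by at least 1 bp on the same strand. Of the Cdh1 peaks, 20 of 36 were shared (55.6%, 95% Wilson interval 39.6 to 70.5%), and of the Fat1 peaks 20 of 44 (45.5%, 31.7 to 59.9%), where 17.7% of all 25511 plus-strand peaks were. Both values lay near the 46.2% (39.7 to 52.7%) of the 221 peaks in the 8 other densest windows. These intervals treat peaks as independent, although 1 overlap makes both of its peaks shared. They are therefore likely too narrow, and they hold no spread between clones. Since all these windows were picked for having many peaks in every library, the height above 17.7% is not independent of that choice. It was not tested. Library by library, the Cdh1 share was 62.5% (EZH2 replicate 1), 33.3% (EZH2 replicate 2), 55.6% (SUZ12 replicate 1) and 70.0% (SUZ12 replicate 2). The Fat1 share was 41.7%, 55.6%, 50.0% and 38.5% in the same order. EZH2 replicate 2 was the lowest library for Cdh1 and the highest for Fat1.

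Every peak in the last 3 kb of both windows was shared, a distance chosen after the values were seen. These were 11 peaks of Cdh1 and 4 of Fat1, and elsewhere 9 of 25 were shared in Cdh1 and 16 of 40 in Fat1. The Fat1 value depends on the cut, which falls just before a site whose first summit lay 2.999 kb from the window end. The next Fat1 peak, at 3.67 kb in SUZ12 replicate 1, was not shared. Peaks found in all 4 libraries made up 11 of 36 in Cdh1 (30.6%) and 4 of 44 in Fat1 (9.09%), beside 9.95% in the 8 other densest windows and 3.21% of all plus-strand peaks. In Cdh1 the 3 peaks of the second cluster count here only because the 800-bp peak of EZH2 replicate 2 reached over them. Merged by overlap, the Cdh1 peaks formed 22 sites, of which 2 had a peak in 4 libraries, 1 in 3, 3 in 2 and 16 in 1. The Fat1 peaks formed 32 sites, with 1 in 4 libraries, 2 in 3, 5 in 2 and 24 in 1. Sites in 3 or 4 libraries were 13.6% in Cdh1 and 9.38% in Fat1, beside 2.24% of all 22866 plus-strand sites. As the members were chosen for recurring density, this excess is again no independent result, and the genes were not tested against each other.

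Sharing within a protein was set beside sharing across proteins. Averaged over directions, 41.3% of a library's Cdh1 peaks were found in the second clone of its own protein, and 42.0% in a clone of the partner protein. The corresponding Fat1 values were 27.9% and 25.8%. Single directions ranged from 22.2 to 62.5% in Cdh1 and from 15.4 to 44.4% in Fat1, a spread far wider than the gap between the averages. Of the 8 sites found in just 2 libraries, 3 joined clones of 1 protein and 5 crossed the proteins. As 4 directions lie within a protein and 8 across, more crossing sites would arise without any preference, so none is read from this count. The same values over all plus-strand peaks were not set beside these.

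**Figure D4:**
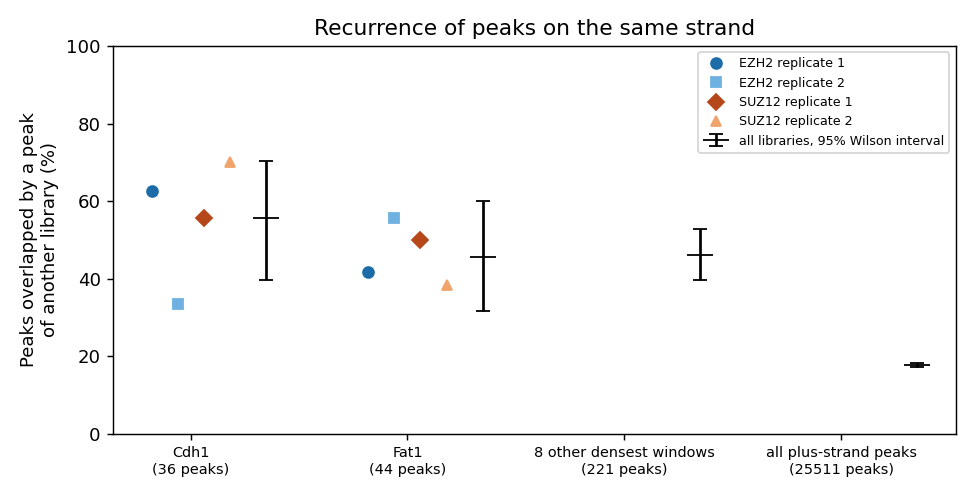
Percent of peaks overlapped by a same-strand peak of another library, for Cdh1, Fat1, the 8 other densest windows and all plus-strand peaks. Symbols are single libraries and black bars are all libraries with their 95% Wilson interval, which treats peaks as independent and is likely too narrow. The Cdh1 and Fat1 intervals overlap each other and that of the 8 other windows, above 17.7% for all plus-strand peaks.

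Strength was described by FDR. Pooled over libraries, the median FDR was 5.79e-05 for the Cdh1 peaks and 0.000934 for the Fat1 peaks. It was 0.000398 in the 8 other densest windows, lower than in Fat1, and 0.00169 for all plus-strand peaks. An FDR below 1e-05 was reached by 14 of 36 Cdh1 peaks and 7 of 44 Fat1 peaks, where 8.19% of all plus-strand peaks did. The 14 in Cdh1 included all 11 peaks of its last 3 kb. Cdh1 had 4, 3, 3 and 4 such peaks and Fat1 1, 2, 2 and 2, in the order of libraries above, so Cdh1 had more in each library. The medians did not follow this in SUZ12 replicate 1, where the Cdh1 median FDR was 0.00343 and the Fat1 median 0.000504, beside 0.00204 for all plus-strand peaks of that library. In EZH2 replicates 1 and 2 the Cdh1 medians were 8.13e-06 and 7.65e-05 and the Fat1 medians 0.00251 and 0.000673, and in SUZ12 replicate 2 the values were 2.61e-05 and 0.000548. Of the peaks with an FDR below 1e-05, 13 of 14 were shared in Cdh1 and 5 of 7 in Fat1, beside 49.0% of all such plus-strand peaks. Of the weaker peaks 7 of 22 were shared in Cdh1 (31.8%) and 15 of 37 in Fat1 (40.5%), beside 15.0% of all. The 1 strong Cdh1 peak that was not shared was the EZH2 replicate 2 peak at 109189274 named above.

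Within Cdh1, shared peaks had a median FDR of 2.06e-07 and a median width of 171 bp, and peaks of 1 library 0.00283 and 111.5 bp. In Fat1 the medians were 0.000300 and 145 bp for shared peaks and 0.00232 and 133 bp for the others. By these medians shared peaks were both stronger and wider in either gene. A wider peak meets the 1-bp rule for sharing more easily, so the difference in width is partly built in. The medians also pool libraries whose peaks differ in width. With every peak set to 100 bp around its summit, the shared share was 44.4% in Cdh1 and 38.6% in Fat1.

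The numbers of peaks were compared between SUZ12 and EZH2 in a limma fit over 1098 windows, the 50-kb windows of both strands with a mean of at least 2 peaks and the 2 gene windows. The fit called 0% of these windows at an adjusted p of 0.05, 0 in number, and 28 had an unadjusted p below 0.05. Cdh1 was at a log2 difference of 0.04 ± 0.39 (SE), SUZ12 minus EZH2, with a 95% interval of -0.72 to 0.81 (limma, two-sided, adjusted p = 0.972). Fat1 was at 0.02 ± 0.36 with an interval of -0.68 to 0.72 (limma, adjusted p = 0.986). Both differences were smaller than their errors, which limma moderated toward a trend over all windows. The rule asked for many peaks in every library, which favours genes with a small difference, so these values do not show that the proteins are alike on Cdh1 and Fat1.

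Positions along the genes were compared next. The median Cdh1 summit lay 58.3 kb (EZH2 replicate 1), 32.1 kb (EZH2 replicate 2), 56.6 kb (SUZ12 replicate 1) and 44.6 kb (SUZ12 replicate 2) from the window start, a difference in means of 5.36 kb (exact permutation test, two-sided p = 1, where 6 assignments allow no p below 0.333). Both SUZ12 values lay between the EZH2 values. In Fat1 the median summit lay at 82.0 and 93.4 kb in EZH2 and at 61.4 and 83.3 kb in SUZ12, a difference of -15.3 kb (exact permutation test, two-sided p = 0.667) that ran from -4.36 to -39.0 kb under its 7 alternatives. The part of the window beyond 50% of its length held 22 of 36 peaks in Cdh1 (61.1%) and 27 of 44 in Fat1 (61.4%), and its share ran from 44.4 to 75.0% over the libraries of Cdh1 and from 50.0 to 77.8% over those of Fat1.

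The median widths of the Cdh1 peaks per library were apart between the proteins. EZH2 clones had median widths of 191 and 193 bp, a mean of 192 ± 1.41 bp (SD, n = 2). SUZ12 clones had 116 and 144 bp, a mean of 130 ± 19.8 bp (SD, n = 2). These medians did not overlap, and the difference of -62.0 bp was larger than the spread of medians within either protein (exact permutation test, two-sided, p = 0.333, the smallest this design allows). Single Cdh1 peaks did overlap in width, from 35 to 800 bp in EZH2 and from 48 to 299 bp in SUZ12. In Fat1 the EZH2 medians of 126 and 175 bp overlapped the SUZ12 medians of 115.5 and 143 bp, with a difference of -21.2 bp (exact permutation test, two-sided p = 0.667). Over all plus-strand peaks the EZH2 medians were 179 and 187 bp and the SUZ12 medians 145 and 146 bp, so the direction seen in Cdh1 was that of the libraries as a whole. The narrowest peak was the Fat1 peak of 21 bp at 46121545 to 46121565 in EZH2 replicate 1, and the widest the Cdh1 peak of 800 bp in EZH2 replicate 2.

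**Figure D5:**
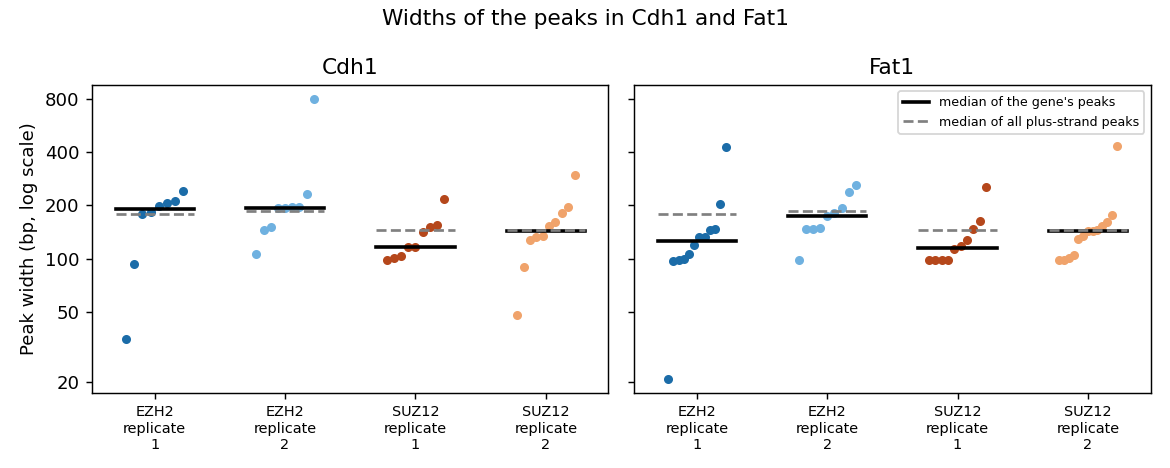
Width of each Cdh1 peak (left) and Fat1 peak (right) in bp on a log scale, by library. Black lines are the medians of the gene's peaks and dashed grey lines those of all plus-strand peaks of the library, and the Cdh1 medians of 191 and 193 bp in EZH2 stand above the 116 and 144 bp in SUZ12.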

How the data were processed

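The deposited data were 8 lists of peaks, 1 per dCLIP library and strand, called on single libraries. Each gave the position, strand and summit of a peak, with the p-value and FDR of the authors' peak caller. Peak names carry the prefix of PeakRanger. Which version, settings and control it ran with is not given in the sources used here. Build mm9, bedtools 2.17.0, SAMtools 0.1.18, TopHat2 2.0.8 and Trim Galore 0.3.3 are named in the submitters' processing notes. Of the 80 p-values in Cdh1 and Fat1, 76 were whole powers of 1/2 (within 0.001 halvings), so many peaks tie. FDR was used only to describe, rank or filter peaks.

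Starts are counted from 1, and summits are as deposited, so a distance may be off by 1 bp. Peaks were placed by summit. Sites are plus-strand peaks of the 4 libraries merged by an overlap of 1 bp, which joins them in chains. Every site in 3 or 4 libraries is named, and the peak with the lowest FDR of each library and gene is among them or named beside them. Other peaks and the upstream stretch were picked after their values were seen. Numbers per window had 0.5 added, were divided by the length of the library's list plus 1, set to 10000 and taken to log2, then fitted with limma 3.58.1 in R 4.3.3, with Benjamini-Hochberg adjustment over all windows. No model for reads was used, since peaks were counted. On simulated windows the fit called 23% of 100 changed 4-fold, 66% of 100 changed 8-fold and 3 of 896 unchanged. These were Poisson numbers around the means of the 50-kb windows with at least 2 peaks on average, without added spread between clones. The rates are therefore not those of Cdh1 and Fat1. Other steps used Python 3.11.15, NumPy 2.4.6, pandas 2.3.3, SciPy 1.17.1 and matplotlib 3.10.9. The members and lists were chosen with earlier results of these data known. The labels give separate clones as replicates, and the permutation p-values compare the clones of the gene itself. In limma the variance of each window was moderated toward a trend over all windows. Its errors, intervals and p-values for Cdh1 and Fat1 therefore measure largely the typical spread of windows, not that of their own clones alone. Other cadherin and junction genes were not analysed here, as no mm9 annotation was used.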

Additional observations from a re-analysis of the deposited data

How the results depend on the processing

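Between SUZ12 and EZH2, none of the 14 alternatives for each gene, and for the count of called windows, gave an adjusted p below 0.05 in limma (0.767 to 0.999 for Cdh1, 0.895 to 0.986 for Fat1), and 0 windows were called in each. The sign of these small differences did change. When each list was cut to its best 50% by FDR, Cdh1 stood at -0.28. With 1 library left out the difference ran from -0.047 to 0.13 in Cdh1 and from -0.35 to 0.39 in Fat1. It turned negative without EZH2 replicate 2 in both genes (-0.047 and -0.35), without SUZ12 replicate 1 in Cdh1 (-0.019) and without SUZ12 replicate 2 in Fat1 (-0.028), where the lone library was assumed to vary like the rest. The replicate block left the differences at 0.04 and 0.02 and 0 windows called. So did other filters on windows, placing peaks by overlap, windows starting 25 kb later and windows of 100 kb. A balanced block or another set of windows cannot move the difference of a gene window, only its error and adjusted p. The rule also favours genes with a small difference, so these alternatives do not show that the proteins are alike. Deviations of same-numbered libraries correlated at 0.0833 over 1098 windows, and with 2 pairs the numbers were not taken to pair the libraries.

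The shared share of Cdh1 ran from 38.5 to 59.3% with 1 library left out, lowest without SUZ12 replicate 2, and from 44.4 to 64.0% under the other alternatives. That of Fat1 ran from 34.1 to 50.0%. The plus-strand share was 100% in all 7 alternatives for each gene, but this outcome was fixed in advance. The alternatives removed peaks or placed them by overlap, and no minus-strand peak lay in or near either window. The Cdh1 summit difference changed sign for means per library (-1.70 kb), and with 1 library left out it ran from -7.78 to 18.5 kb, negative without EZH2 replicate 2 and without SUZ12 replicate 1 (-0.626 kb). The Fat1 summit difference kept its sign but not its size, at -4.36 kb without SUZ12 replicate 1, -9.63 kb without EZH2 replicate 2, -26.2 kb without SUZ12 replicate 2, -7.28 kb for means per library, -6.48 kb at equal list lengths and -39.0 kb with the lists cut to their best 50%. With 1 library left out the Fat1 width difference ran from -45.8 to 3.25 bp, positive without EZH2 replicate 2, while the Cdh1 width difference stayed between -76.0 and -41.0 bp in all 7 alternatives. The cause of these changes was not tested. The number of peaks, at most 13 per gene and library, limits every value.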

Other observations

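The stretch before Cdh1 also held plus-strand peaks. In the RefSeq annotation of GRCm38.p6 the protein-coding gene before Cdh1 is Cdh3, which encodes P-cadherin, a classical cadherin of epithelia, and the one after it is Tango6. Peaks were not assigned to either, since that annotation is of another build. In the 100 kb before the Cdh1 window there were 13 plus-strand peaks and 0 minus-strand peaks, 1 in each EZH2 library, 4 in SUZ12 replicate 1 and 7 in SUZ12 replicate 2. This stretch was picked after its values were seen, and its division over the libraries was not tested against that of Cdh1.

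The 50-kb window at 109050001 to 109100000 held 1 peak in either EZH2 library and 4 in either SUZ12 library. On the log2 scale SUZ12 minus EZH2 was 1.48 ± 0.72 (SE) (limma, unadjusted p = 0.0419, adjusted p = 0.972), so it did not pass the adjusted threshold. In the same fit 28 of 1098 windows had an unadjusted p below 0.05. The only overlap between libraries in these 100 kb was at 47.7 kb before the Cdh1 window, where EZH2 replicate 1 had a peak at 109079266 to 109079381 (FDR 0.000214), SUZ12 replicate 1 at 109079293 to 109079414 (FDR 0.000700) and SUZ12 replicate 2 at 109079227 to 109079428 (FDR 1.88e-07). EZH2 replicate 2 had no peak there, as it had none at the start of the Cdh1 window.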
